A study of Mus musculus with 6 samples.

Results

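The 77 genes described here had RNA that was at most 0.5 times as abundant on polyribosomes as in total RNA in each of 3 pairs of mouse synaptoneurosome libraries. They were chosen from the counts themselves, as CPM, the count of a gene scaled to the sum of its library. Of 21958 protein-coding genes, 6836 had a mean of at least 20 CPM in total RNA, and 94 of these (1.38%) had a ratio of at most 0.5 in every pair. Genes of 20 name families and 2 single genes, among them zinc finger genes named Zfp, genes encoded by mitochondrial DNA, ion channel subunits, histones and SR proteins, were left out by name, which removed 17 of the 94. The 77 that remained were 1.21% of the 6371 genes that met the limits on level and name. At that level, before names were left out, 2 genes were at least 2 times higher on polyribosomes in every pair. The limit was set on total RNA, so genes low there and high on polyribosomes could not be counted. The 94 and the 2 are therefore not compared.

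Synaptoneurosomes are pinched-off synaptic terminals, with presynaptic and postsynaptic parts, filtered from brain homogenate. They were prepared from FVB mice aged 6 to 8 weeks, from the hippocampus together with adjacent cortex. The total group, 3 libraries, held ribosomal RNA-depleted total RNA of unstimulated synaptoneurosomes. The polyribosome group, 3 libraries, held RNA of the pooled light and heavy polyribosome fractions of a sucrose gradient. Per the methods, these fractions were taken without RNA granules, and only the first part of the heaviest fraction was used. The synaptoneurosomes of the polyribosome group had received a 30 s pulse of NMDA (50 µM) and glutamate (10 µM) at 37°C, followed by APV (120 µM), an antagonist of the NMDA receptor, and 20 min of incubation. The methods describe unstimulated samples as held on ice with cycloheximide, an inhibitor of translation elongation. The groups therefore differed in fraction, stimulation, temperature, incubation and inhibitor at once, and the part of each in a ratio cannot be told apart. Libraries with the same replicate number shared a preparation of pooled animals, and a ratio is that of the polyribosome library to the total library of one pair. In such bulk RNA, fewer terminals or cells of a type and less RNA in each cannot be told apart either.

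A messenger RNA that is being translated carries several ribosomes at once and sediments with the polyribosomes, deep in a sucrose gradient. RNA that carries a single ribosome or none, such as RNA in repressed messenger ribonucleoprotein particles or RNA that codes for no protein, stays nearer the top. Per the methods, the lysate was first centrifuged and only the supernatant was loaded. RNA pelleted in that step, such as RNA still in nuclei, would not reach the gradient. The methods describe the total sample both as a part of that supernatant and as a separate aliquot extracted directly. In neurons, some messenger RNAs are carried to dendrites and axons in a repressed state and are translated at the synapse. RNA in the granules that were left out of the pooled fractions would also be missing from the polyribosome group, wherever it sedimented. The ratio used here compares the 2 pools and does not say in which of these states the remaining RNA was.

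The sequences around the start codon of the 8 genes with the smallest mean ratio are shown first, because the bases next to the ATG are among the features known to set how well ribosomes start there. A purine (A or G) as the third base before the ATG and a G just after it are the favoured, so-called Kozak, bases. The capitals mark the third base before the ATG, the ATG and the base after it, all 5′ to 3′ on the coding strand of GRCm38.
Snhg11, chromosome 2, ATG from 158376200, plus strand: tgtttccCagATGAgccttt
Krit1, chromosome 5, ATG from 3806467, plus strand: ccgcccgGcaATGGgaaatc
Zcchc7, chromosome 4, ATG from 44761874, plus strand: actttccAtaATGTttggtg
Cspp1, chromosome 1, ATG from 10045086, plus strand: aatctacAaaATGGcagata
Ddx26b, chromosome X, ATG from 56455206, plus strand: gtagtggAagATGCccatcc
Ppip5k2, chromosome 1, ATG from 97761538, minus strand: ttcaagaAaaATGAgtgaac
Ankrd32, chromosome 13, ATG from 77126714, minus strand: ggccgggAagATGGaagata
Ttc14, chromosome 3, ATG from 33800279, plus strand: cgggctcGccATGGaccgcg
Snhg11 alone among the 8 lacked the purine. Krit1, Cspp1, Ankrd32 and Ttc14 had the favoured G after the ATG, and Zcchc7, Ddx26b, Ppip5k2 and Snhg11 did not. Ppip5k2 had 10 further ATGs in its annotated 5′ UTR of 840 bases, whereas Zcchc7, Ankrd32 and Ttc14 had 0.

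Across the 77 genes, the mean of the 3 ratios ranged from 0.209 (Snhg11) to 0.488 (Brwd1), with a median of 0.379. It was at most 0.3 in 8 genes and above 0.4 in 27. The median ratio of the 77 genes was 0.40 in pair 1, 0.412 in pair 2 and 0.324 in pair 3, whereas the medians of all 6371 genes were 0.930, 0.948 and 0.904. Pair 3 gave the smallest of the 3 ratios in 60 of the 77 genes, pair 2 in 10 and pair 1 in 7. Pair 3 also had the most genes at a ratio of at most 0.5 among all 6371, with 617, compared with 164 in pair 1 and 159 in pair 2. The total library of that pair was the shallowest of the 6, with 1044955 counts, so that 20 CPM there was 20.9 counts. The other total libraries held 3738022 and 2907817 counts, and the polyribosome libraries 7361580, 6856562 and 5294482. These values chose the genes and are therefore a description without a test.

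**Figure D1:**
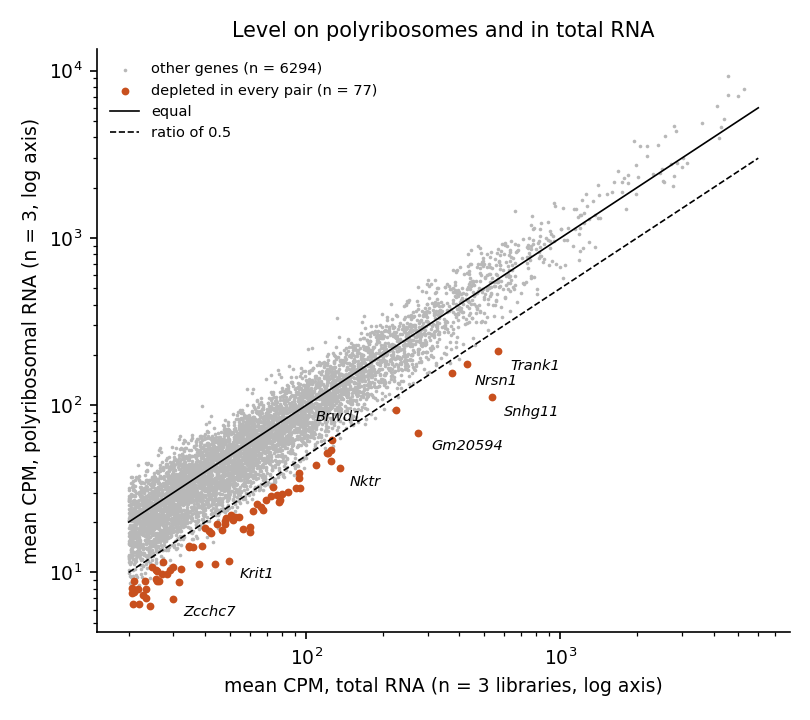
Mean level on polyribosomes (vertical axis) against mean level in total RNA (horizontal axis), both as CPM over 3 libraries on log axes, for the 6371 genes that met the limits on level and name. The 77 depleted genes (orange) all lie below the dashed line at a ratio of 0.5, from 20.6 to 569 CPM in total RNA. The other 6294 genes (grey) surround the solid line of equal levels, and some also lie below the dashed line. In all, 229 genes have a ratio of group means of at most 0.5, so that line does not separate the 77.

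The exact 95% interval of each ratio, from the 2 counts of a pair and covering counting error only, lay below 1 in all 3 pairs for all 77 genes, and below 0.5 in all 3 pairs for 20 of them. The rule had already used these counts to keep ratios of at most 0.5, and intervals were made for the 77 genes alone. Nothing is therefore read from them. The 3 polyribosome libraries were below all 3 total libraries for the 77 genes, as they were for 25.7% of the 6836 genes of that level. All 77 genes had at least 10 counts in every polyribosome library. In the total libraries the 77 genes together took 0.610%, 0.605% and 0.641% of the counts, and in the polyribosome libraries 0.240%, 0.239% and 0.195%. The rank order of the 77 ratios was only loosely shared between pairs, with Spearman coefficients across genes of 0.37 for pairs 1 and 2, 0.33 for pairs 1 and 3 and 0.38 for pairs 2 and 3. The limit of 0.5 cut through a continuous range. Just inside it were Brwd1, Rbm6 and Sntg1, with largest ratios of 0.4997, 0.498 and 0.497, and just outside were Mysm1, Rictor and Tasp1, each with a largest ratio of 0.504. In addition, 121 genes had a ratio of at most 0.5 in exactly 2 pairs and 467 in exactly 1.

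**Figure D2:**
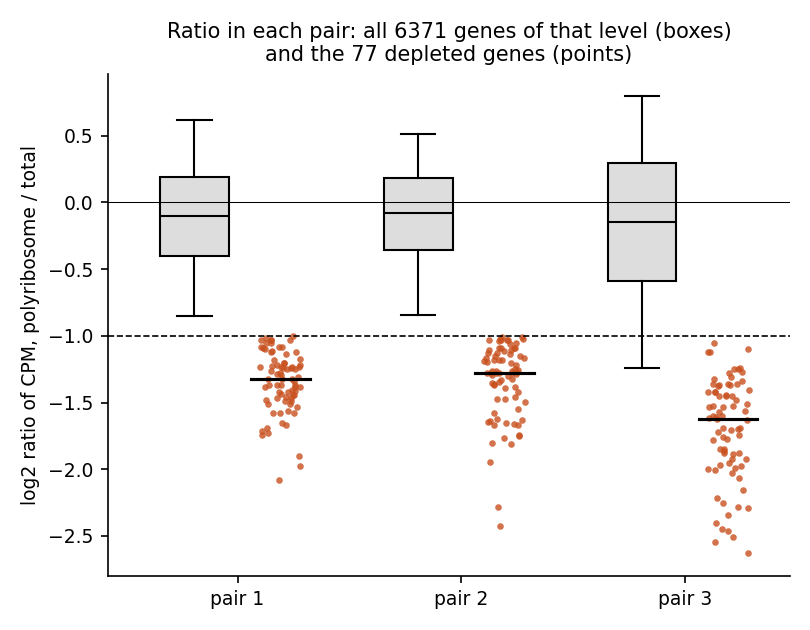
Log2 ratio of CPM, polyribosome over total, in each of the 3 pairs. Boxes show the median and quartiles of the 6371 genes with whiskers at the 5th and 95th percentiles, and points show the 77 depleted genes with a bar at their median, which was -1.32 in pair 1, -1.28 in pair 2 and -1.62 in pair 3.

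In the fit of all 12255 genes that passed the filter on low counts, the quasi-likelihood test of edgeR, with p-values adjusted after Benjamini and Hochberg and a threshold of 0.01, called 75 of the 77 genes lower on polyribosomes and 0 higher, where 2.36% of all genes tested were called lower and 0.71% higher. With the replicate number as a block it called all 77 lower, where 13.2% of all genes were called lower and 11.8% higher. Since the same contrast chose the genes, nothing is read from these counts. Rlf and Gm20594 were the genes not called without the block. The log2 fold changes of the 77 genes ranged from -2.16 to -0.93 with a median of -1.29, and the median over all genes tested was close to 0 (0.00097). With library totals alone, as in the ratios, the median over all genes shifted to -0.11 and that of the 77 genes to -1.40. The calls depended on single total and polyribosome libraries, over all genes as well as among the 77. Without total replicate 2, 19 of the 77 were called lower, where 0.17% of all genes tested were. Without polyribosome replicate 2 the values were 35 and 0.37%, and without total replicate 1 they were 40 and 0.50%. The median log2 fold change of the 77 genes stayed between -1.33 and -1.25 when any one library was left out.

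Snhg11, the host gene of small nucleolar RNAs in its introns, had the smallest mean ratio. Its level was 526, 544 and 537 CPM in total replicates 1, 2 and 3, and 124, 102 and 110 CPM in the matching polyribosome libraries. The groups were far apart and the libraries within each group close together, with a mean ratio of 0.209 ± 0.025 (SD, n = 3) and a log2 fold change of -2.16 ± 0.17 (SE). The gene is annotated as protein-coding in the deposited table, although small nucleolar RNA host genes are known mainly for their introns. Among the 7 such host genes tested, Snhg11 was the only one called lower, and the replicate block called 2 lower. The summed level of the other 6 was 403 to 434 CPM in total RNA and 326 to 365 CPM on polyribosomes, and the median log2 fold change of the 7 was -0.21.

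Krit1, a scaffold protein of endothelial junctions mutated in cerebral cavernous malformation, had 48.7, 55.4 and 45.0 CPM in total RNA and 15.1, 11.4 and 8.50 CPM on polyribosomes. Its log2 fold change was -1.99 ± 0.21 (SE). Zcchc7, a zinc knuckle protein of a nuclear RNA surveillance complex, had 27.8, 25.1 and 36.4 CPM in total RNA and 7.06, 7.15 and 6.61 CPM on polyribosomes, a log2 fold change of -1.94 ± 0.21. The polyribosome libraries of Zcchc7 lay within a narrow range, and the spread of its ratios came from the total libraries. Cspp1, a centrosome and cilium protein that binds microtubules, had 43.1, 38.5 and 49.8 CPM in total RNA and 11.5, 12.1 and 10.2 CPM on polyribosomes (log2 fold change -1.82 ± 0.19).

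Ddx26b, related to a subunit of the Integrator complex, had 23.3, 20.6 and 28.7 CPM in total RNA and 7.88, 6.13 and 4.91 CPM on polyribosomes. Ppip5k2, a kinase that makes inositol pyrophosphates, had 28.9, 28.2 and 37.3 CPM in total RNA and 10.5, 9.63 and 6.04 CPM on polyribosomes. Both had their lowest polyribosome and highest total level in replicate 3, which made their ratio in that pair 0.171 and 0.162, the latter the lowest single ratio among the 77 genes. Ankrd32, a DNA repair factor, had 22.7, 22.4 and 21.1 CPM in total RNA and 7.61, 6.56 and 5.29 CPM on polyribosomes. Ttc14, a protein with tetratricopeptide repeats, had 61.0, 53.3 and 65.1 CPM in total RNA and 23.6, 16.8 and 11.9 CPM on polyribosomes. The log2 fold changes of these 4 genes were -1.77 ± 0.22, -1.69 ± 0.22, -1.65 ± 0.20 and -1.66 ± 0.22 (SE).

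**Figure D3:**
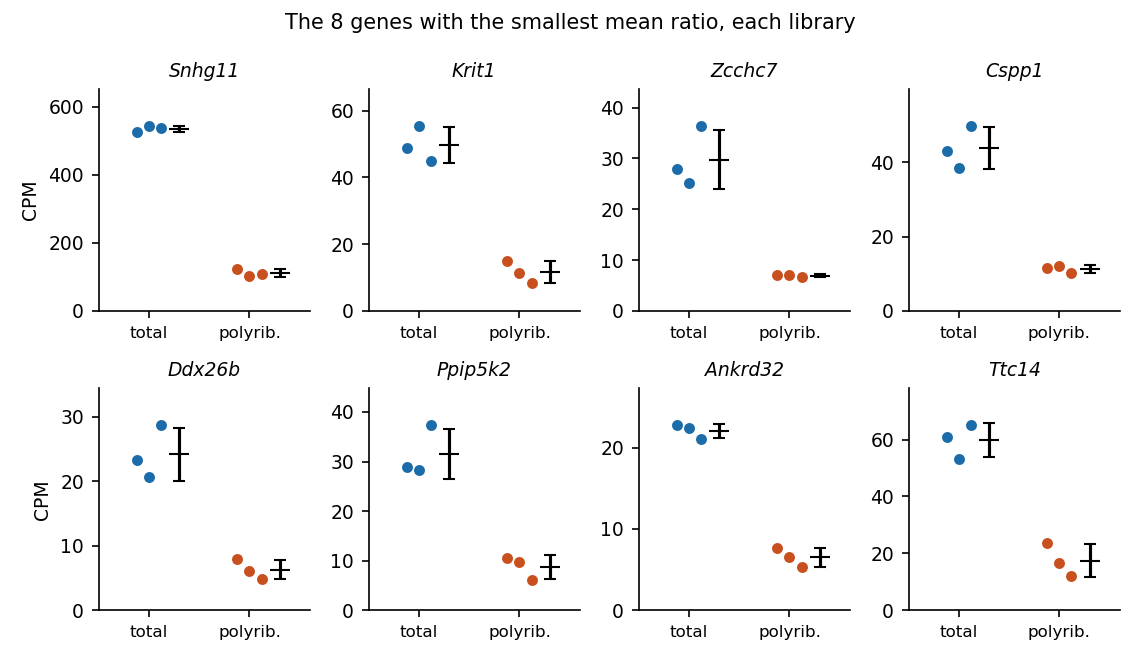
Level in CPM of the 8 genes with the smallest mean ratio, in each of the 3 total libraries (blue) and 3 polyribosome libraries (orange, in replicate order from left), with the mean and SD (n = 3) beside each group and every axis from 0. The groups do not overlap in any panel, and Snhg11 has both the highest level and the smallest ratio.

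The genes with the most counts were a different set except for Snhg11. CPM is not divided by transcript length, so it orders the genes by counts and not by the number of RNA molecules. Trank1, a large protein with tetratricopeptide and ankyrin repeats, had 519, 582 and 608 CPM in total RNA and 186, 256 and 188 CPM on polyribosomes. Nrsn1, which encodes the neuronal membrane protein neurensin, had 470, 492 and 321 CPM in total RNA and 198, 227 and 104 CPM on polyribosomes. Both Nrsn1 groups were lowest in replicate 3, and its ratios of 0.420, 0.461 and 0.326 were closer together than its levels.

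R3hdm1, with an R3H domain known to bind nucleic acids, had 349, 408 and 364 CPM in total RNA and 165, 170 and 130 CPM on polyribosomes. Brwd1, a chromatin reader with bromodomains and WD repeats, stood at the limit, with 134, 122 and 123 CPM in total RNA and 67.1, 58.8 and 59.5 CPM on polyribosomes. The log2 fold changes of Trank1, Nrsn1, R3hdm1 and Brwd1 were -1.34 ± 0.19, -1.19 ± 0.24, -1.17 ± 0.17 and -0.93 ± 0.15 (SE).

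Gm20594 differed from the other members in its spread and in its sequence. It had 104, 152 and 573 CPM in total RNA and 41.6, 60.7 and 101 CPM on polyribosomes, so that total replicate 3 stood far above the other total libraries, and its log2 fold change of -1.90 had the largest standard error of the genes named here (0.51). Without total replicate 3 the log2 fold change was -0.78. Its deposited coordinates, chr6:79818031-79818364 of GRCm38 on the plus strand, span 334 bases, which aligned with 88.4% identity to positions 763 to 1085 of mt-Rnr2, the gene of the mitochondrial 16S ribosomal RNA. A stretch of 97 bases from the start of its annotated coding sequence is shown beside the mitochondrial one, with the 4 differing bases in capitals and both on the plus strand of GRCm38.
Gm20594, chr6:79818251-79818347: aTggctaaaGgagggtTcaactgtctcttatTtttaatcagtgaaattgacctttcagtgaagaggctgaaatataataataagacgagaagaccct
mt-Rnr2, chrM:2070-2166: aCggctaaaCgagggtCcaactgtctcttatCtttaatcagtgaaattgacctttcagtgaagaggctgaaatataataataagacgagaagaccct
The longest identical run was 65 bases, and reads of mitochondrial ribosomal RNA and of Gm20594 may be hard to separate there, which makes its value uncertain. The 13 genes named mt- took 3.44%, 4.28% and 3.87% of the counts of total replicates 1, 2 and 3 and 1.64%, 2.39% and 1.39% in the polyribosome libraries. The part of mitochondrial reads in the value of Gm20594 was not tested.

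By function, 20 of the 77 genes were on 7 lists of genes made with earlier results of these data known, and 57 were on none. The list of RNA processing and nuclear speckle proteins held 8 of them among 112 genes of that level (7.14%). Nktr, a cyclophilin with serine-arginine repeats, had 120, 129 and 156 CPM in total RNA and 47.5, 41.3 and 38.2 CPM on polyribosomes. Cpsf6, a subunit of the cleavage factor that helps place poly(A) sites, had 88.3, 117 and 77.5 CPM in total RNA and 32.5, 37.9 and 26.1 CPM on polyribosomes. The polyribosome libraries of Nktr ran against its total libraries, highest in replicate 1 where the total was lowest, whereas those of Cpsf6 followed its total libraries, which gave ratios of 0.368, 0.325 and 0.336.

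Pnisr, a serine-arginine-rich protein of nuclear speckles, had 69.8, 71.9 and 95.7 CPM in total RNA and 23.4, 22.8 and 35.7 CPM on polyribosomes. Rbm25, a splicing regulator, had 69.6, 74.97 and 89.0 CPM in total RNA and 31.9, 24.2 and 23.0 CPM on polyribosomes. The log2 fold changes of Nktr, Cpsf6, Pnisr and Rbm25 lay between -1.56 and -1.41. The other members on the list were Tia1, an RNA-binding protein of stress granules, Rbm6, Rsrp1 and Luc7l3. Of the whole list, 154 genes were tested, of which 20 were called lower (12.99%, where 2.36% of all genes were) and 0 higher by edgeR at an adjusted p under 0.01. At an unadjusted p under 0.05, 6 of the 154 were higher, and DESeq2 called 23 lower and 0 higher. Of all 12255 genes tested, 2092 were lower and 1888 higher at an unadjusted p under 0.05 in edgeR. DESeq2 called 402 of them lower and 268 higher, and these values are the background for the lists below as well. The 12 called genes that were not members included Smg1, a kinase of nonsense-mediated decay, with ratios of 0.436, 0.536 and 0.392, and Luc7l2, with ratios of 0.530, 0.437 and 0.410. The replicate block raised the count to 60 lower (38.96%, where 13.2% of all genes were) and 3 higher (1.95%, where 11.8% of all genes were). Leaving out total replicate 1, total replicate 2 or polyribosome replicate 2 gave 10, 2 and 5 lower on the list. In these fits 0.50%, 0.17% and 0.37% of all genes tested were called lower.

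The list of chromatin and transcription regulators held 7 of the 77 genes among 172 of that level (4.07%). Ankrd12, which recruits histone deacetylases, had 130, 130 and 115 CPM in total RNA and 62.9, 61.0 and 37.8 CPM on polyribosomes. Tet2, which oxidizes methylcytosine, had 90.2, 80.5 and 109 CPM in total RNA and 43.5, 36.9 and 37.8 CPM on polyribosomes. In both genes the ratio was smallest in pair 3, by a lower polyribosome level for Ankrd12 and by a higher total level for Tet2.

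Ccnt2, a cyclin of the elongation factor P-TEFb, had 62.1, 58.5 and 65.1 CPM in total RNA and 26.2, 26.1 and 17.6 CPM on polyribosomes. Stag1, a cohesin subunit, had 61.3, 50.6 and 40.2 CPM in total RNA and 24.99, 24.6 and 16.2 CPM on polyribosomes. Smarca1, Nfatc3 and Asxl3 were the others on the list. Of 293 list genes tested, edgeR called 16 lower (5.46%, beside 2.36% of all genes) and 0 higher, with 11 higher at an unadjusted p under 0.05 and 22 lower and 0 higher by DESeq2. The 9 called genes that were not members included Mef2c, a transcription factor of neurons, with ratios of 0.501, 0.582 and 0.532. The replicate block gave 74 lower (25.3%) and 12 higher (4.096%), beside 13.2% and 11.8% of all genes. Leaving out total replicates 1, 2 and 3 and polyribosome replicates 1 and 2 gave 2, 0, 10, 9 and 1 lower by edgeR. In these fits 0.50%, 0.17%, 1.56%, 1.23% and 0.37% of all genes tested were called lower. Without total replicate 2, 82 list genes were lower at an unadjusted p under 0.05 in edgeR, where 1740 of all 12743 genes tested were.

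The centrosome and cilium list held Cspp1 alone of the 77 genes among 41 of that level, but 8 more of the 41 had a ratio of at most 0.5 in exactly 2 pairs. So did 121 of all 6371 genes, 8 of the 112 on the RNA processing list and 7 of the 194 on the ubiquitin list. Of its 109 genes tested, 11 were called lower (10.1%, beside 2.36% of all genes) and 0 higher, with 2 higher at an unadjusted p under 0.05 and 17 lower and 0 higher by DESeq2. Those called besides Cspp1 included Nin, which anchors microtubules at the centrosome, with ratios of 0.474, 0.541 and 0.389, and Alms1, a protein of the ciliary base, with ratios of 0.538, 0.436 and 0.271. The block gave 38 lower (34.9%) and 1 higher (0.917%), beside 13.2% and 11.8% of all genes. Leaving out single libraries gave 2, 1 and 4 lower for total replicates 1, 2 and 3, and 7 and 1 for polyribosome replicates 1 and 2. The shares of all genes called lower in these fits are given with the chromatin list.

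Of the list of ubiquitin ligases and deubiquitinases, 8 of 272 were called lower without the block (2.94%, beside 2.36% of all genes) and 2 higher, Fbxo2 and Rnf187. With the block 63 were called lower (23.2%, beside 13.2% of all genes) and 10 higher (3.68%, beside 11.8%). The member on this list was Hectd2, a HECT-type ubiquitin ligase, with 26.8, 24.1 and 19.1 CPM in total RNA and 9.24, 7.73 and 6.99 CPM on polyribosomes. The list did not hold every such gene, since Hace1, grouped with ubiquitin below, was not on it. Of the guanine nucleotide exchange factors and GTPase activators, 8 of 160 were called lower (5.0%) and 0 higher (13 at an unadjusted p under 0.05, 0 by DESeq2), and with the block 36 lower (22.5%) and 10 higher (6.25%). The member on the list of these genes was Ralgapa2, a subunit of the GTPase activator of Ral. It had 43.9, 37.1 and 59.3 CPM in total RNA and 18.7, 15.3 and 19.5 CPM on polyribosomes. Of the zinc finger genes without the Zfp name, 3 of 113 were called lower (2.65%), Zcchc7, Zcchc11 and Zcchc4, and 0 higher (0 at an unadjusted p under 0.05, 0 by DESeq2). At an unadjusted p under 0.05 in edgeR, 38 of the 113 were lower, where 2092 of all 12255 genes were. The block called 30 lower (26.5%) and 0 higher, beside 13.2% and 11.8% of all genes.

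Grouped by hand with their values known, the 77 genes were placed as follows, and the group medians of the mean ratio lay between 0.347 and 0.393. RNA binding, splicing and decay took 18 genes, with the small nucleolar RNA host gene Snhg11 counted among them, and had a median mean ratio of 0.383. Besides those named, they were Srek1, a splicing regulator, Dusp11, a phosphatase that acts on RNA 5′ ends, Pan3, a subunit of a poly(A) nuclease, the helicases Dhx33 and Ascc3, and R3hcc1l. Chromatin, transcription and DNA repair took 20 genes, with a median of 0.393, among them Phip, Ubn2, Bend6, Rlf, Atad2b, Cxxc4, Orc4, Ercc6l2, Mtf2, Lcor and Scai. Of these, Ubn2 belongs to a histone chaperone complex, Orc4 to the origin recognition complex and Mtf2 to a Polycomb complex. Cxxc4 lies next to Tet2 on chromosome 3, and they were the only neighbouring genes among the 77.

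Microtubules, centrosome and cilium took 6 genes, with a median of 0.368, which were Cspp1, Dync2h1, the motor of retrograde transport in cilia, Cfap54, Eml5, Eml6 and Hook1. Ubiquitin and the proteasome took 5, with a median of 0.347, which were Hectd2, Hace1, Spopl, the conjugating enzyme Ube2d3 and the proteasome activator Psme4. Signalling, membranes, actin and metabolism took 14, with a median of 0.392. Besides Nrsn1, Krit1, Ppip5k2, Ralgapa2 and Sntg1, these included Cttnbp2, which binds cortactin in dendritic spines, Stxbp5l, a tomosyn that binds syntaxin, the actin regulators Raph1, Fnbp1l and Cd2ap, and Dopey1 and Rundc3b. The remaining 14 were not placed, with a median of 0.360, and were Trank1, Gm20594, Ttc14, N4bp2l2, Mlip, Fam135a, BC005561, Sergef, Fsd1l, 4933427D14Rik, Gm16432, Ccser1, Egfem1 and Tsga10.

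No gene on the lists of synaptic proteins, dendritic messenger RNAs and immediate early genes was among the 77. The lists held 79, 21 and 10 genes that met the limits on level and name. Over all 6371 such genes the share of members was 1.21%, so nothing is read from the absence. Genes left out by name, such as Kif5a on the dendritic list, could not be members. Of 79 genes of that level on the list of postsynaptic and presynaptic proteins, 0 were members and 2, Unc13b and Homer1, had a ratio of at most 0.5 in exactly 2 pairs. Of 82 tested, 1 was called lower without the block, Unc13b, a priming factor of synaptic vesicles, and 1 higher, Grin2c, a subunit of NMDA receptors, and the summed level of the list was 35391 to 39359 CPM in total RNA and 35004 to 37090 CPM on polyribosomes. Of 22 known dendritic messenger RNAs and of 20 immediate early genes, edgeR called 0 in either direction without the block. DESeq2 called 1 lower in each, Homer1, and 0 higher, and at an unadjusted p under 0.05 in edgeR 4 and 2 were lower and 4 and 3 higher. With the block, 11 synaptic, 4 dendritic and 1 immediate early genes were called lower and 13, 6 and 3 higher, where 13.2% of all genes were called lower and 11.8% higher. Camk2a, the kinase whose messenger RNA is a model of dendritic transport, had 3802, 3650 and 5115 CPM in total RNA and 3666, 3332 and 4906 CPM on polyribosomes. Homer1, a postsynaptic scaffold, came nearest to the 77, with 199, 205 and 133 CPM in total RNA and 95.8, 109 and 61.2 CPM on polyribosomes. Its ratios were 0.481, 0.531 and 0.460, so that only pair 2 kept it out.

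The libraries held markers of neurons and of glia. The 9 neuron markers summed to 9006 to 9896 CPM in total RNA and 9133 to 10118 CPM on polyribosomes, and edgeR without the block and DESeq2 called 0 of them, with 2 lower and 3 higher at an unadjusted p under 0.05 in edgeR. The block called 2 lower and 3 higher. The sums of the glial and endothelial markers were, in total RNA and on polyribosomes, 37215 to 40378 and 44913 to 45237 CPM for 11 astrocyte genes, 8179 to 12518 and 10410 to 15538 CPM for 10 oligodendrocyte genes, 709 to 1041 and 1103 to 1250 CPM for 11 microglia genes, and 412 to 452 and 371 to 606 CPM for 10 endothelial genes. Astrocyte and microglia sums did not overlap between the groups and were higher on polyribosomes, the opposite direction to the 77 genes. Their part in the ratios was not tested. Of the 42 glial and endothelial markers tested, edgeR and DESeq2 called 0 lower, with 0 lower at an unadjusted p under 0.05, and edgeR called 1 higher, Cldn11 of oligodendrocytes. DESeq2 called 5 higher, the astrocyte genes Aldh1l1, Aldoc and Gfap and the oligodendrocyte genes Cldn11 and Mag. At an unadjusted p under 0.05 in edgeR 17 of the 42 were higher, where 1888 of all 12255 genes were. With the block 17 were called higher, 8 of them astrocyte genes, and 0 lower, where 11.8% of all genes were called higher.

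What the rule did not use was the sequence of the genes, and there the 77 stood apart most in base composition. Their transcripts had a median GC content of 43.6%, compared with 50.5% for the other genes of that level, and 72 of the 77 lay below that median. In the 3′ UTR the medians were 37.2% and 44.7%. When the 6363 genes with an annotated transcript were divided into quintiles of GC content, the lowest held 50 of the 77 genes, 3.93% of its genes, and the next ones held 19, 7, 1 and 0. No test was made of these differences, which are medians and counts.

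GC content also moved with the ratio across all genes. The Spearman coefficient of GC content with the log2 ratio across the 6363 genes was 0.55, 0.57 and 0.37 in pairs 1, 2 and 3, and genes are not independent replicates. The lowest GC quintile had median log2 ratios of -0.39, -0.40 and -0.53, and the highest 0.31, 0.21 and 0.16. Within the 77 genes the coefficient with GC content was 0.21. The part of base composition in the ratios was not tested.

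The genes were also longer. The median gene span was 83607 bases, compared with 37301 for the other genes of that level, and 61 of the 77 lay above that median. The median coding length was 2073 bases against 1556, the transcript length 4261 against 3376, the 3′ UTR 1451 against 1149, and the number of exons 13.5 against 11. The 5′ UTR was close to the others at 198 against 184 bases. Among genes with GC content below the median, the members were 2.76% of those with longer and 1.53% of those with shorter transcripts, and above it 0.292% and 0.110%. Rising quintiles of mean total CPM held 24, 12, 18, 17 and 6 of the genes, from 1.88% of the genes in the lowest to 0.471% in the highest, and the median mean total CPM was 47.8 against 57.7 for all 6371 genes.

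**Figure D4:**
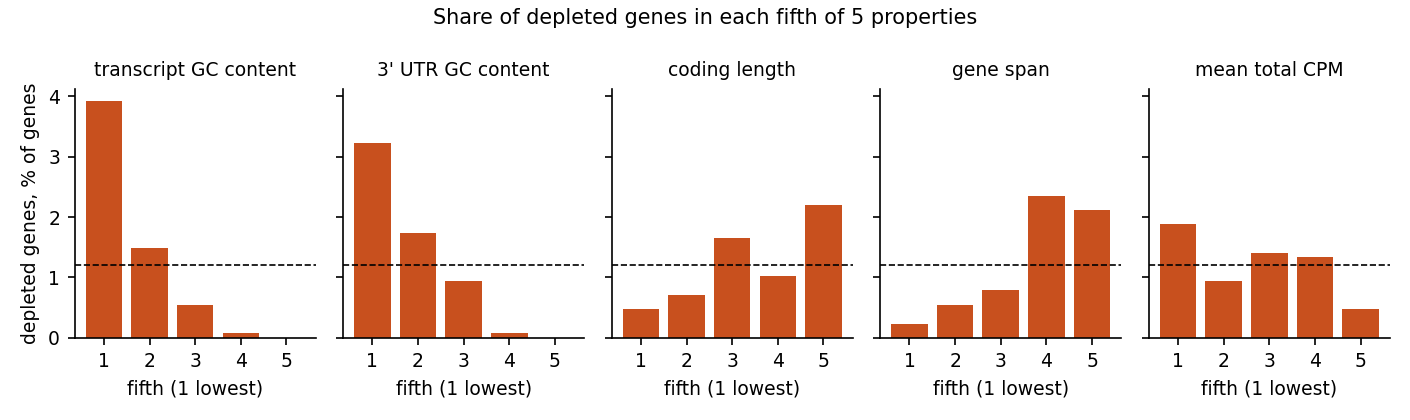
Share of depleted genes (vertical axis, percent of the genes in a bar) in each of 5 equal groups of genes ordered by transcript GC content, 3′ UTR GC content, coding length, gene span and mean total CPM, from the lowest group (1) to the highest (5). The dashed line is the share over all genes, 1.21%, and the bars fall from 3.93% to 0 with rising transcript GC content and for gene span are 0.235%, 0.549% and 0.785% in the 3 lowest groups and 2.35% and 2.12% in the highest ones.

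The annotation gave these genes more alternative transcripts. The median number of annotated transcripts was 9, compared with 6 for the other genes of that level. A transcript with a retained intron was annotated for 65 of the 77 genes (84.4%) and 63.6% of the others, and a transcript marked for nonsense-mediated decay, the pathway that removes RNAs with an early stop codon, for 44 of 77 (57.1%) and 28.8%. More transcripts give more chances of either kind. Among genes with 7 to 12 annotated transcripts, the shares were 88.4% and 81.7% for retained introns and 60.5% and 42.4% for nonsense-mediated decay. In the lowest GC quintile they were 82.0% and 64.1%, and 64.0% and 30.6%. The counts are per gene, so which transcripts were present in either fraction was not analysed here.

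At the start codon, 59 of 76 genes (77.6%) had A or G as the third base before the ATG, compared with 87.5% of the other genes, and the share with a G after it was 50.0% against 50.9%. In the lowest GC quintile the purine shares were 80.0% and 88.1%. At least 1 ATG was found in the 5′ UTR of 61.8% of the genes and of 56.6% of the others. Of the promoters of 62 members in RefSeq's table for GRCm38.p6, 0 had a TATAAA between 40 and 10 bases before the start, and 0 had a start like that of the TOP messenger RNAs, a C followed by 4 pyrimidines, both read on the gene's own strand, compared with 0.953% and 2.57% of the other promoters. These windows of 250 bases before and 50 after the start had a median ratio of observed to expected CpG of 0.869, against 0.797.

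**Figure D5:**
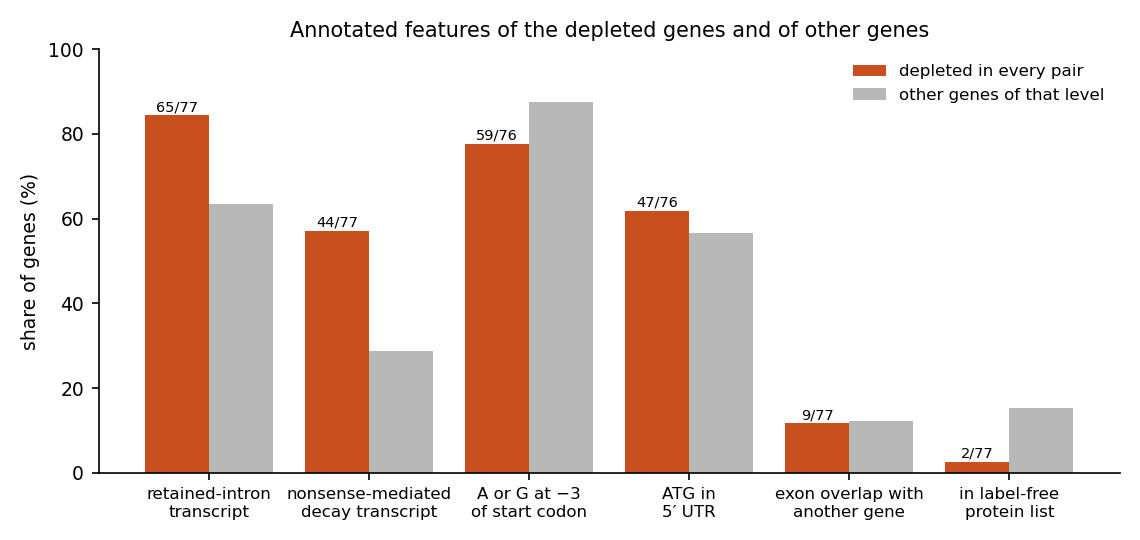
Share of genes (percent, bars from 0) that carry each of 6 features, for the depleted genes (orange, with the number of genes above the bar) and the other 6294 genes of that level (grey). The largest gaps are those of the nonsense-mediated decay transcript, 57.1% and 28.8%, the retained-intron transcript, 84.4% and 63.6%, and the label-free protein list, 2.597% and 15.3%.

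The list of proteins from a label-free mass spectrometry experiment on the same kind of preparation held 1161 gene symbols and need not hold every protein identified. On it, 2 of the 77 genes were found (2.597%), one of them Scai, compared with 15.3% of the other genes of that level. In the lowest GC quintile the shares were 4.0% and 13.1%.

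The bodies of 11 of the 77 genes overlapped another gene of the deposited table (14.3%, compared with 19.7% of the others), all on the opposite strand where exons overlapped. Exons overlapped in 9, among them Dopey1 with Pgm3, Eml5 with Zc3h14, Eml6 with Rtn4, Mtf2 with Tmed5, Nfatc3 with Esrp2, Orc4 with Acvr2a, Ppip5k2 with Gin1 and Ttc14 with Ccdc39. Cspp1 with Cops5 and Krit1 with Lrrd1 overlapped without shared exon bases. The use of strand in the counting is not given in the sources used here, so the values of these 11 genes are uncertain. The 77 genes lay on the X chromosome and on every autosome but chromosome 15, which held 0 of its 263 genes of that level, and the most were on chromosome 1, with 11 of 417 (2.64%), and chromosome 9, with 8 of 367 (2.18%).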

How the data were processed

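Per the labels and the methods, the authors depleted ribosomal RNA, mapped reads with STAR 2.5.2b to GRCm38 and deposited whole-number counts of 21958 protein-coding genes (Gencode vM6 basic), unnormalized. The authors' DESeq2 columns in the same deposited table (mean normalized signal, log2 fold change and its error, Wald score, p-values) were not used here. CPM, ratios and the rule were computed from the counts. edgeR 4.0.16 (R 4.3.3) was run with TMM, filterByExpr and a quasi-likelihood test of group alone. It was checked on simulated data. Members, lists and role groups were chosen with earlier results of these data known. Named genes were, per list, up to 4 members (3 for marker, synaptic and immediate early lists) of highest mean total CPM, the 8 of smallest mean ratio, the 8 of highest level and 3 on each side of the ratio limit. Other names were chosen after their values were seen. The values of some members are not reported here. Lengths, GC content and overlaps came from Gencode vM21 (GRCm38, medians over transcripts). Same-numbered libraries were taken as pairs, from the shared header labels, the aliquots of the methods and deviations that correlated at 0.393, 0.291 and 0.429. Replicates differed by more than sampling noise, and p-values measure only the spread between these preparations.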

Additional observations from a re-analysis of the deposited data

How the results depend on the processing

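The number of genes that met the limits was 54 and 52 with TMM- and RLE-scaled libraries and 109 and 94 with a level of at least 10 CPM and with no names left out. It was 36 at a level of at least 50 CPM, 20 and 272 at ratio limits of 0.4 and 0.6, 86 to 134 when one pair was left out, and 229 by the ratio of group means, without pairs. By construction, all 77 were among the genes of each wider rule, and the stricter limits on level and ratio gave no gene outside the 77. The 54 and 52 genes with TMM- and RLE-scaled libraries were also all among the 77. Over all genes, 289 were called lower and 87 higher. Library totals alone gave 42 higher, DESeq2 268 higher, no filter on low counts 566 lower and 476 higher, and the replicate block, which reflects the pairing of preparations, 1622 lower and 1441 higher. Leaving out one library gave 22 to 208 lower and 0 to 61 higher (edgeR, with 1423 higher at an unadjusted p under 0.05 where it gave 0), and 19 to 74 of the 77 genes. Of the lists, RNA processing gave 60 lower with the replicate block and 2 to 20 without one library, chromatin 28 with no filter, 74 with the block and 0 to 11 without one library, and centrosome 17 by DESeq2, 19 with no filter, 38 with the block and 1 to 8 without one library. The block changed no other call for the 77 genes than those of Rlf and Gm20594. Lengths and GC content kept their direction with the longest transcripts and with either background, and no named gene changed direction. The protein features planned were not run, since no protein table was used here, and the causes of these changes were not tested.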
